A study of Mus musculus with 4 samples.

Results

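The genes described here are 10 fibroblast growth factor (Fgf) ligands of the epiblast and the early brain, Fgf2, Fgf3, Fgf4, Fgf5, Fgf8, Fgf9, Fgf13, Fgf15, Fgf17 and Fgf18. They were measured in Rax::GFP+ and Rax::GFP- cells. The genes were chosen by name, with earlier results of these data known. Their members on the array were all probe sets annotated to 1 of these genes alone. This gave 19 of the 45101 probe sets and 10 of the 18194 named genes. A probe set is a group of short oligonucleotides that together report 1 value per array for a transcript. Of the 10 genes, 4 had 1 probe set and 6 had several. The cells came from 1 reporter line of mouse embryonic stem cells (ESCs), with GFP knocked in at Rax, an eye field and forebrain homeobox gene. They were grown as floating aggregates in a serum-free medium with no added growth factor, with no treatment in either group, and sorted by GFP on day 4.5. Each of the 2 groups, Rax_GFP+ and Rax_GFP-, had 2 arrays from biological duplicates, each made from RNA of pooled aggregates, so differences between single aggregates cannot be seen. GFP+ cells are those sorted as having the Rax reporter on, and GFP- cells are those sorted as lacking its signal, whatever their type.

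Secreted Fgfs bind tyrosine kinase receptors together with heparan sulphate, or with Klotho proteins in the case of the endocrine Fgfs, and signal through the Ras-Mek-Erk cascade. That cascade switches on Ets factors such as Etv4 and Etv5 and feedback inhibitors of the Sprouty, Spred and Dusp families. Fgf4 and Fgf5 are ligands of pluripotent cells, Fgf5 being a classical marker of the epiblast after implantation. Fgf8, Fgf17 and Fgf18 are made at the isthmus, the signalling centre between midbrain and hindbrain, and Fgf8 also in the rostral neural ridge and the primitive streak. Fgf13 belongs to the Fgf homologous factors, which stay inside the cell and bind voltage-gated sodium channels instead of Fgf receptors.

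The deposited values were log2 expression values, 1 per probe set and array. Array medians lay between 5.84 and 5.89, and the number of arrays limits the precision. Rax itself, by whose reporter the cells were sorted, was lower in GFP- cells (log2 difference -2.05, limma, adjusted p = 0.00785). Of 9 measured genes of the rostral forebrain and eye field, Rax among them, 6 were lower and none was higher. Markers of several cell types were higher in GFP- cells. Relative to GFP+ cells, 7 of 11 core pluripotency, 9 of 12 endoderm and 3 of 9 primed epiblast genes were higher. So were 2 of 8 genes of the primitive streak and 2 of 9 of the isthmus and midbrain. In the same lists 1 endoderm gene and 1 primed epiblast gene were lower. Of all genes, each by its most expressed probe set, 5.4% were higher and 2.63% lower at the threshold given below. Differences below are log2 values in GFP- minus GFP+ cells. A probe set was called when limma's moderated test gave an adjusted p under 0.05 after Benjamini-Hochberg adjustment over all probe sets. With 2 arrays against 2, an exact permutation test of a single value cannot go below p = 0.333.

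Fgf5 and Fgf4 rose most among the ligands in GFP- cells, by up to 11.2-fold and 8.48-fold, Fgf4 at only 2 of its 4 probe sets. Fgf15 was modestly higher, and Fgf9 was lower by 1 of its probe sets. Of the 19 member probe sets, 5 (26.3%) were called higher and 1 (5.26%) was called lower in GFP- cells. Of all probe sets on the array, 3.64% were called higher and 3.82% lower. As the members were chosen with earlier results known, these shares describe them and test nothing. Counted as genes, 4 of the 10 ligands had any probe set called, 3 higher and 1 lower, where 10.8% of all genes had one in either direction. When 1 probe set stood for each gene, the one with the highest mean log2 value, 2 ligands, Fgf5 and Fgf15, were called higher and none lower, beside 5.4% and 2.63% of all genes. With limma, the unadjusted p was under 0.05 for 10 of the 19 member probe sets (52.6%) and for 26.7% of all probe sets. The groups did not overlap at 12 of the 19 (63.2%), against 57.3% of all probe sets. The median difference of the member probe sets was 0.13, and that of all probe sets was 0.03. Without GFP- replicate 1, or without GFP- replicate 2, limma took the spread from the GFP+ arrays alone, and no call held, at members or elsewhere. This loss ran across all 45101 probe sets, so it does not show which calls depend on the values of 1 GFP- array. Unadjusted p-values were then under 0.05 for 7704 and 7697 probe sets, 9 and 10 of them members.

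**Figure D1:**
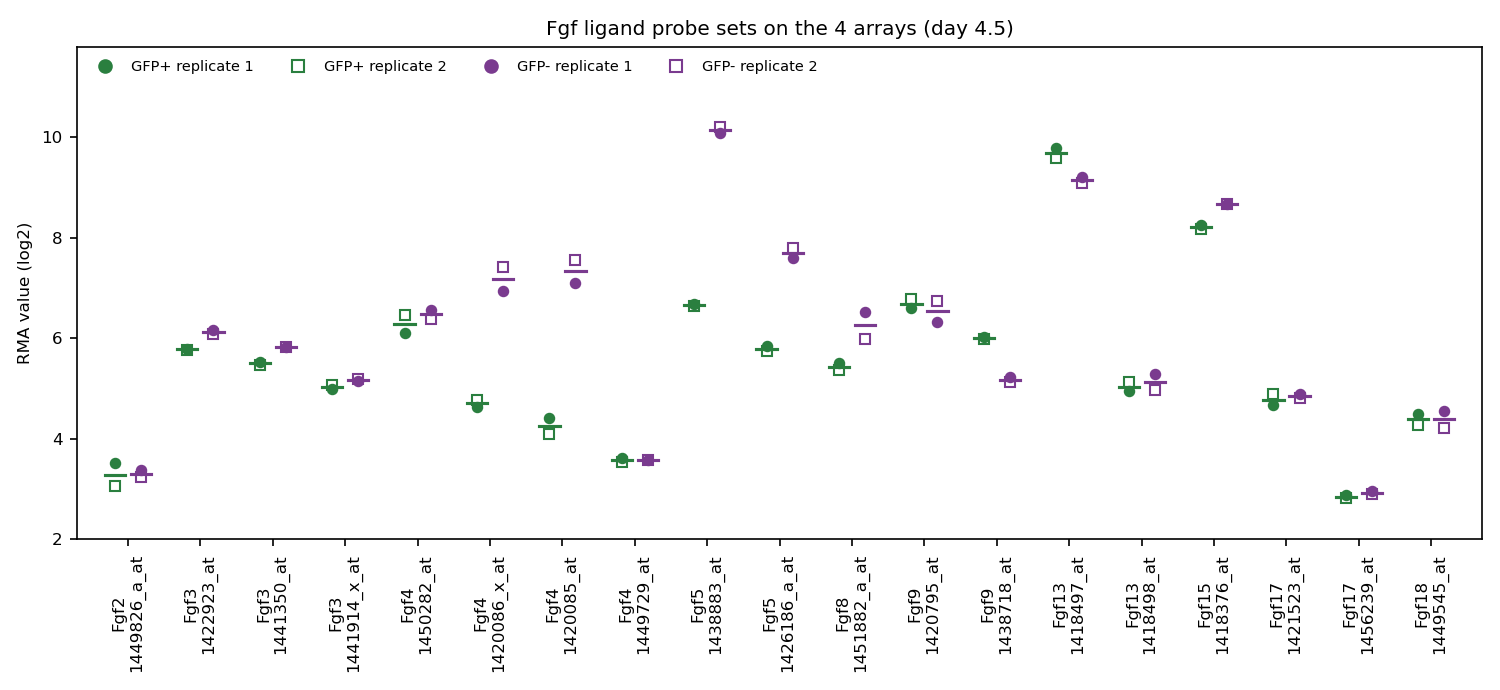
Log2 values of all 19 probe sets of the 10 Fgf ligands on the 4 arrays, with each point 1 array (circles replicate 1, squares replicate 2), GFP+ and GFP- arrays in separate colours, and the group mean (n = 2) as a bar. The 2 GFP- arrays stand far above the 2 GFP+ arrays at both probe sets of Fgf5 and at 2 of the 4 of Fgf4, while most other ligands differ little.

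Fgf5, which marks the epiblast after implantation and later acts in the hair cycle, was higher in GFP- cells at both of its probe sets. The probe set 1438883_at read 6.69 and 6.64 on the GFP+ arrays and 10.09 and 10.22 on the GFP- arrays. The replicates lay close together and the groups far apart. The difference was 3.49 (standard error 0.08, 95% confidence interval 3.27 to 3.71), an 11.2-fold higher level (9.63 to 13.1), with adjusted p = 0.0044. The other probe set, 1426186_a_at, read 5.84 and 5.75 against 7.60 and 7.80, and its groups did not overlap either. Its difference was 1.91 (standard error 0.10, 95% confidence interval 1.64 to 2.18), 3.75-fold, with adjusted p = 0.00638. Both probe sets thus gave the same direction and different sizes, and the gap between them, -1.58 (standard error 0.11), was itself called (limma over all pairs, adjusted p = 0.00589). Both calls held when either GFP+ array was left out. In bulk RNA, a higher value can come from more cells of a type or from more RNA per cell, and these cannot be told apart here.

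Fgf4, the ligand that ESCs make themselves and that acts on the exit from self-renewal and on primitive endoderm, gave 2 different answers depending on the probe set. The probe set 1420085_at read 4.42 and 4.09 on the GFP+ arrays and 7.11 and 7.57 on the GFP- arrays. The probe set 1420086_x_at read 4.64 and 4.77 against 6.94 and 7.43. At both, each GFP- array was well above each GFP+ array. The differences were 3.08 (standard error 0.20, 95% confidence interval 2.55 to 3.61), 8.48-fold (5.87 to 12.2), with adjusted p = 0.00785, and 2.48 (standard error 0.18, 95% confidence interval 1.99 to 2.96), 5.57-fold, with adjusted p = 0.00961. The most expressed probe set of the gene, 1450282_at, read 6.10 and 6.46 on the GFP+ arrays and 6.57 and 6.39 on the GFP- arrays, and its groups overlapped. Its difference was 0.20 (95% confidence interval -0.20 to 0.60, adjusted p = 0.468), so an increase as large as at the other probe sets lies outside this interval. The last probe set, 1449729_at, stayed near the bottom of the scale, at 3.62 and 3.54 in GFP+ cells and 3.58 on both GFP- arrays, with a difference of 0.00 (adjusted p = 0.982).

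In the platform annotation, 1420085_at, 1420086_x_at and 1449729_at were designed from the same sequence record, and 1450282_at from the RefSeq mRNA record. The suffix _x marks a set in which some oligonucleotides can also match other transcripts, whereas the suffix _at alone marks a set designed to be unique. Where on the transcript each set lies was not analysed here. The gap between 1420085_at and 1450282_at was 2.88 (standard error 0.30, limma over all pairs, adjusted p = 0.0137), and that between 1420086_x_at and 1450282_at was 2.28 (standard error 0.23, adjusted p = 0.0135). The first of these gaps was not called without GFP- replicate 2 (adjusted p = 0.0521), and the second was called without any 1 array. A report of Fgf4 by its most expressed probe set and one by its most changed probe set therefore differ beyond the spread between replicates.

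The promoters of Fgf5 and Fgf4, the ligands that rose most, and of Fgf3, the neighbour of Fgf4 that was not called, are shown from RefSeq (GRCm38.p6), each from 250 bases before to 50 bases after the gene's start on the plus strand. They lie at chr5:98253934-98254233 for Fgf5, chr7:144861136-144861435 for Fgf4 and chr7:144838362-144838661 for Fgf3. Capitals mark matches, on either strand, to the motifs searched.
Fgf5: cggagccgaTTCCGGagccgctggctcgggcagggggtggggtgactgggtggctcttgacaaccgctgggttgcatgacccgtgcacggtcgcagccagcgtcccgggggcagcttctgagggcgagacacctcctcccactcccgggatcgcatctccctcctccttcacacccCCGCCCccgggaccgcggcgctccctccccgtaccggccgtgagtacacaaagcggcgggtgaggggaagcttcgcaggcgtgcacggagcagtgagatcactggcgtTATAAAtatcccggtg
Fgf4: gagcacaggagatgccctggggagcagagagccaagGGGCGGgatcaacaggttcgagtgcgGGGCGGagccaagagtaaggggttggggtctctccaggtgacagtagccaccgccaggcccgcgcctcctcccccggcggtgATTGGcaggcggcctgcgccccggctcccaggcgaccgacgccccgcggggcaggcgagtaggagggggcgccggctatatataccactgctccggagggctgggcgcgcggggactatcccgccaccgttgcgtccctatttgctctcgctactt
Fgf3: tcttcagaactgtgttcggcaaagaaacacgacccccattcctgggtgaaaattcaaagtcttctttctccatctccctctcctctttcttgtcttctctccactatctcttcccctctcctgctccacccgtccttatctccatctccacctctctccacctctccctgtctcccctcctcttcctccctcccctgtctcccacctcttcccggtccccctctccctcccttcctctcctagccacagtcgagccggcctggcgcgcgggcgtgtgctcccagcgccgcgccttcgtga
The motifs searched were the TATA box with the letters TATAAA, the CCAAT box spelled by its name, the GC box with the letters GGGCGG, the octamer of Oct factors with the letters ATGCAAAT, the Ets core with the letters CCGGAA and the E-box with the letters CACGTG. No match found overlapped another. The Fgf5 promoter held 1 TATA box match, starting 34 bases after the gene's start, 1 GC box and 1 Ets core. The Fgf4 promoter held 1 CCAAT box and 2 GC boxes, and the Fgf3 promoter held none of the motifs. Only exact letters were counted, so the run of alternating t and a in the Fgf4 promoter was not a TATA box match. Of all 32851 promoters in the same table, 13.6% held the TATA box, 37.4% the CCAAT box, 35.7% the GC box, 1.74% the octamer, 14.9% the Ets core and 7.15% the E-box. The promoters of Fgf5 and Fgf4 were rich in CpG, with 29 and 28 CpG in 300 bases and a GC content of 68.3% and 69.7%. Fgf3 had 14 CpG and 59.3% GC, and the median of all promoters was 7 CpG and 52.7% GC. Among the other ligands Fgf18 had 47 CpG, Fgf2 24, Fgf9 12 and the promoters of Fgf13 from 3 to 40. GC boxes were also found in Fgf2, Fgf18 and some promoters of Fgf13. High CpG and GC boxes were thus not particular to the ligands that rose. Of the 10 ligand genes, 7 matched the promoter table. Fgf8, Fgf15 and Fgf17 did not. These matches are descriptions of the sequence and not of binding.

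Fgf15, the mouse counterpart of human FGF19 and an endocrine Fgf that is also made in the embryonic brain, was slightly higher in GFP- cells. Its only probe set, 1418376_at, read 8.26 and 8.17 on the GFP+ arrays and 8.67 on both GFP- arrays. The GFP- arrays were above both GFP+ arrays. The difference was 0.46 (standard error 0.08, 95% confidence interval 0.26 to 0.66), 1.37-fold, with adjusted p = 0.041. This call was lost without GFP+ replicate 1 (adjusted p = 0.108) and without GFP+ replicate 2 (adjusted p = 0.0966).

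Fgf3, a ligand of otic induction and of the hindbrain, did not pass. Its probe set 1422923_at read 5.79 and 5.77 on the GFP+ arrays and 6.16 and 6.09 on the GFP- arrays, and 1441350_at read 5.53 and 5.47 against 5.83 and 5.84. The groups did not overlap at either, and the separation was narrow. The differences were 0.34 (95% confidence interval 0.15 to 0.54, adjusted p = 0.069) and 0.33 (adjusted p = 0.0711). The third probe set, 1441914_x_at, differed by 0.13 (adjusted p = 0.332), and the gaps of the other two sets to 1422923_at, -0.01 and -0.21, were not called (adjusted p = 0.964 and 0.346). By the mean of its probe sets, Fgf3 passed, with a difference of 0.27 (adjusted p = 0.0481).

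Fgf3, Fgf4 and Fgf15 are neighbours on chromosome 7, in that order in the gene table (GRCm38.p6), with only the non-coding gene Gm26793 between them. The protein-coding genes next to this cluster were Fadd and Ano1 on the side of Fgf3 and LTO1 and Ccnd1 on the side of Fgf15. Ano1, which encodes a calcium-activated chloride channel, was higher in GFP- cells at both of its probe sets, by 1.42-fold (adjusted p = 0.0428) and 1.54-fold (adjusted p = 0.0496), and neither was called without GFP+ replicate 1. No probe set of Fadd, an adaptor of death receptors, of LTO1 or of Ccnd1, which encodes cyclin D1, was called. The non-coding neighbours had no probe set named here. Large differences in this stretch were thus seen at Fgf4 alone, at 2 of its 4 probe sets.

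**Figure D2:**
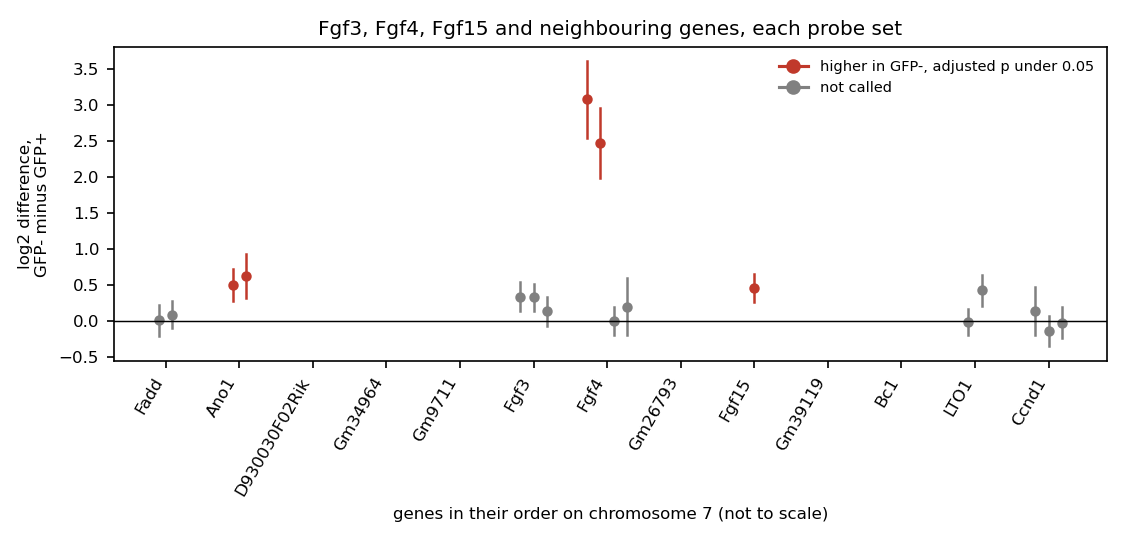
Log2 differences (GFP- minus GFP+) with 95% confidence intervals for each probe set of the named genes in and around the Fgf3, Fgf4 and Fgf15 cluster on chromosome 7, placed in gene order and not to scale. Only 2 probe sets of Fgf4, at 2.48 and 3.08, lie far from 0, while no other probe set is above 0.63.

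Among the isthmic ligands, Fgf8, which patterns midbrain and hindbrain and is also made in the streak and the rostral neural ridge, had the largest difference, and it did not pass. Its probe set 1451882_a_at read 5.50 and 5.37 on the GFP+ arrays and 6.53 and 5.99 on the GFP- arrays. Both GFP- arrays were above both GFP+ arrays, and the GFP- replicates lay further apart than at any other of the 19 member probe sets. The difference was 0.82 (standard error 0.20, 95% confidence interval 0.29 to 1.35), 1.77-fold, with adjusted p = 0.0841. When each gene was tested by the mean of its probe sets, which for Fgf8 changes the tests it is adjusted with and the pooled spread and not its values, it passed (adjusted p = 0.0453). The mean level of the 9 isthmus and midbrain genes was likewise 6.23 on GFP- replicate 1 and 5.70 on GFP- replicate 2, against 5.13 and 5.05 on the GFP+ arrays. Among those genes, Irx3, a homeobox gene of the caudal neural plate, was called at 2.59 (adjusted p = 0.0175) and Lmx1b, a factor of the isthmus and dopaminergic midbrain, at 1.90 (adjusted p = 0.0119). Sp8 differed by -0.14 (adjusted p = 0.845). En1 read 2.72 and 2.74 against 4.67 and 3.67 (difference 1.44, adjusted p = 0.0803). The mean of the 8 primitive streak genes was 5.72 and 5.34 on the GFP- arrays and 4.77 and 4.84 on the GFP+ arrays, with Eomes called at 2.48 (adjusted p = 0.0083) and Evx1 at 0.45 (adjusted p = 0.0475), and with Mesp1 at 0.15 (adjusted p = 0.408). The part of either cell type in the Fgf8 values was not tested.

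Fgf17 and Fgf18, the other two ligands of the Fgf8 subfamily, gave low values with no called difference. The Fgf17 probe set 1421523_at read 4.68 and 4.88 on the GFP+ arrays and 4.89 and 4.82 on the GFP- arrays, and Fgf18 read 4.50 and 4.28 against 4.56 and 4.21. The groups overlapped at both. Their differences were 0.07 (95% confidence interval -0.19 to 0.34, adjusted p = 0.707) and -0.00 (-0.41 to 0.40, adjusted p = 0.999). The second Fgf17 probe set, 1456239_at, was at 2.87 and 2.83 against 2.95 and 2.90 and differed by 0.07 (adjusted p = 0.581).

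Fgf9, a ligand of neurons, glia and mesenchyme, was the only ligand called lower in GFP- cells, and by 1 of its 2 probe sets. The probe set 1438718_at read 6.02 and 5.98 on the GFP+ arrays and 5.23 and 5.13 on the GFP- arrays. Both GFP- arrays were below both GFP+ arrays. The difference was -0.82 (standard error 0.08, 95% confidence interval -1.03 to -0.61), 1.76-fold lower, with adjusted p = 0.0151, and it was not called without GFP+ replicate 1 (adjusted p = 0.0666). The more expressed probe set, 1420795_at, read 6.60 and 6.78 against 6.33 and 6.75, with overlapping groups. It differed by -0.15 (95% confidence interval -0.59 to 0.29, adjusted p = 0.632). The gap between the sets was -0.67 (95% confidence interval -1.16 to -0.17) and was not called among all pairs (adjusted p = 0.129), so unlike for Fgf4 and Fgf5 the disagreement of the Fgf9 sets did not pass a test of its own.

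Fgf2, a widely used culture factor for epiblast stem cells and neural progenitors, read 3.51 and 3.05 in GFP+ and 3.37 and 3.23 in GFP- cells. The groups overlapped, and the difference was 0.02 (95% confidence interval -0.44 to 0.48, adjusted p = 0.963). Together with both Fgf17 sets, the Fgf18 set and 1449729_at of Fgf4, it was among the 5 member probe sets with a mean log2 value under 5. The other 14 reached at least 5 on at least 2 arrays. No detection call was used here, so a low value cannot be read as an absent transcript.

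Fgf13, the intracellular member, was not called at either probe set, and 1 of them came close to the threshold with lower values in GFP- cells. Its probe set 1418497_at read 9.78 and 9.59 on the GFP+ arrays and 9.21 and 9.09 on the GFP- arrays. Both GFP- arrays were below both GFP+ arrays. The difference was -0.53 (standard error 0.10, 95% confidence interval -0.80 to -0.27), with adjusted p = 0.0541. The probe set 1418498_at read 4.95 and 5.13 against 5.28 and 4.97, with overlapping groups and a difference of 0.09 (adjusted p = 0.75). By the most expressed probe set of each gene, 2.63% of all genes were called lower and 5.4% higher. Of 5 measured partners of the Fgf homologous factors, by their most expressed probe sets, Scn8a, a voltage-gated sodium channel, was called lower (-0.76, standard error 0.10, adjusted p = 0.0285) and none was called higher. Mapk8ip2, a scaffold protein bound by these factors, differed by 0.09 (adjusted p = 0.489) at that set and was called higher at another of its 5 sets (0.43, adjusted p = 0.0431).

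**Figure D3:**
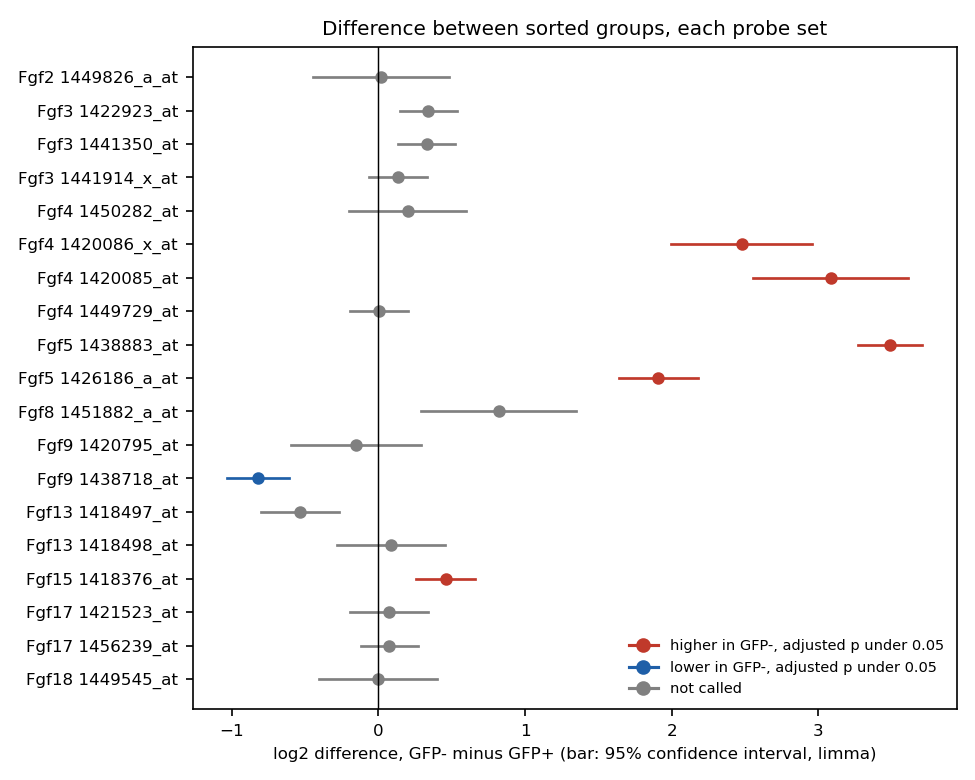
Log2 differences (GFP- minus GFP+) of the 19 Fgf probe sets with 95% confidence intervals from limma, grouped by gene, with called sets coloured by direction. The sets of Fgf4 run from 0.00 to 3.08 and those of Fgf5 from 1.91 to 3.49, whereas the sets of Fgf3 and Fgf17 lie close to each other.

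In all, the 6 ligands with several probe sets gave 9 pairs of the most expressed set with another set of the same gene, and 3 of the 9 differed, 2 of Fgf4 and 1 of Fgf5. Of 16764 such pairs of 9012 genes on the whole array, 4.62% differed at an adjusted p under 0.05. With the members chosen after earlier results were known, the 3 of 9 is no test of the ligands. For Fgf13 the gap was 0.62 (95% confidence interval 0.22 to 1.02, adjusted p = 0.0965).

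None of the other 12 Fgf ligands was called, at any of their 22 probe sets. By the most expressed probe set of each gene, 1 of the 12 had an unadjusted p under 0.05 (limma), against 25.8% of all genes. Their median difference was 0.08, beside 0.05 for all genes. They were set apart from the members with earlier results of these data known, so the contrast with the members is a description. Fgf20 differed by 0.29 (adjusted p = 0.174), and Fgf14, an intracellular homologous factor with widely spaced replicates, by 0.79 (adjusted p = 0.203). Fgf11, the most expressed of them, differed by -0.04 (adjusted p = 0.79). Fgf6, the remaining ligand of the Fgf4 subfamily, differed by 0.16 (adjusted p = 0.251).

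In this and the following lists each gene was counted by its most expressed probe set, and calls at other sets are given after. Beside these counts, 5.4% of all genes were called higher and 2.63% lower by the same rule, with a median difference of 0.05. Of 7 measured receptor and Klotho genes, 1 was called higher and none lower. Klb, which encodes beta-Klotho, the co-receptor for endocrine Fgfs such as Fgf15, read 5.10 and 5.67 on the GFP+ arrays and 7.0 and 7.45 on the GFP- arrays, with no overlap. Its difference was 1.85 (standard error 0.25, adjusted p = 0.0297), it was not called without GFP+ replicate 1 (adjusted p = 0.0758), and its less expressed probe set was not called. Fgfr1, the main receptor of the epiblast, differed by -0.09 (adjusted p = 0.612) and Fgfr2 by 0.10 (adjusted p = 0.53). Of 15 measured adaptors and kinases of the Ras-Mek-Erk cascade, 0 were called by limma, with 2 at an unadjusted p under 0.05 in the higher and 3 in the lower direction. Their median was -0.12, and Nras, the most expressed, differed by 0.17 (adjusted p = 0.22). At other probe sets 2 of the 15 genes were called lower. These were Braf, a Raf kinase, at 3 sets (-1.54, -1.58 and -0.56, adjusted p = 0.0245, 0.0296 and 0.0296), and Sos1, a Ras exchange factor, at 1 set (-0.96, adjusted p = 0.0403).

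Targets and feedback inhibitors of Fgf-Erk signalling moved in both directions. Of 17 measured, 6 were higher and 2 lower, with a median of 0.21. Etv5, an Ets factor induced by Fgf, read 6.58 and 6.30 on the GFP+ arrays and 9.74 and 9.90 on the GFP- arrays. It showed no overlap, and its difference was 3.37 (standard error 0.13, adjusted p = 0.00551). Phlda1, a pleckstrin-homology protein induced by Erk, read 10.89 and 10.51 against 8.62 and 8.45, and it fell by 2.16 on the log2 scale (adjusted p = 0.00936). The other gene that was lower was Dusp5, a nuclear Erk phosphatase (-0.57, adjusted p = 0.0343), and it was named after its value was seen. At a less expressed probe set Spry4, a Sprouty inhibitor, was called higher as well (1.91, adjusted p = 0.0477), which made 7 genes higher by any probe set. Egr1, an immediate early gene, read 12.19 and 10.65 against 10.41 and 9.92 and did not pass (-1.26, adjusted p = 0.233), with its GFP+ replicates standing far apart. Without GFP+ replicate 2 it was called (adjusted p = 0.0355).

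Heparan sulphate enzymes and proteoglycans, which hold Fgfs at the cell surface, were mostly not called. Of 24 measured, 3 were higher and 1 was lower, with a median of -0.02. Hs3st1, a sulphotransferase, was higher by 1.52 (standard error 0.12, adjusted p = 0.0109), and Sdc4, the proteoglycan syndecan-4, by 0.77 (standard error 0.09, adjusted p = 0.0197). The third was Sulf1, a 6-O-endosulphatase (0.46, adjusted p = 0.0391), and the lower gene was Gpc6, a glypican (-0.63, adjusted p = 0.03), both named after their values were seen. At a less expressed probe set Gpc6 was lower by more (-2.03, adjusted p = 0.0228). Hs2st1, a 2-O-sulphotransferase, was called lower at a single less expressed set (-1.40, adjusted p = 0.0189). Its most expressed set differed by -0.01 (adjusted p = 0.968), and its remaining sets, at 0.05 and -0.06, were not called. Sulf2, the most expressed gene of the list that was not called, differed by -0.15 (adjusted p = 0.261).

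**Figure D4:**
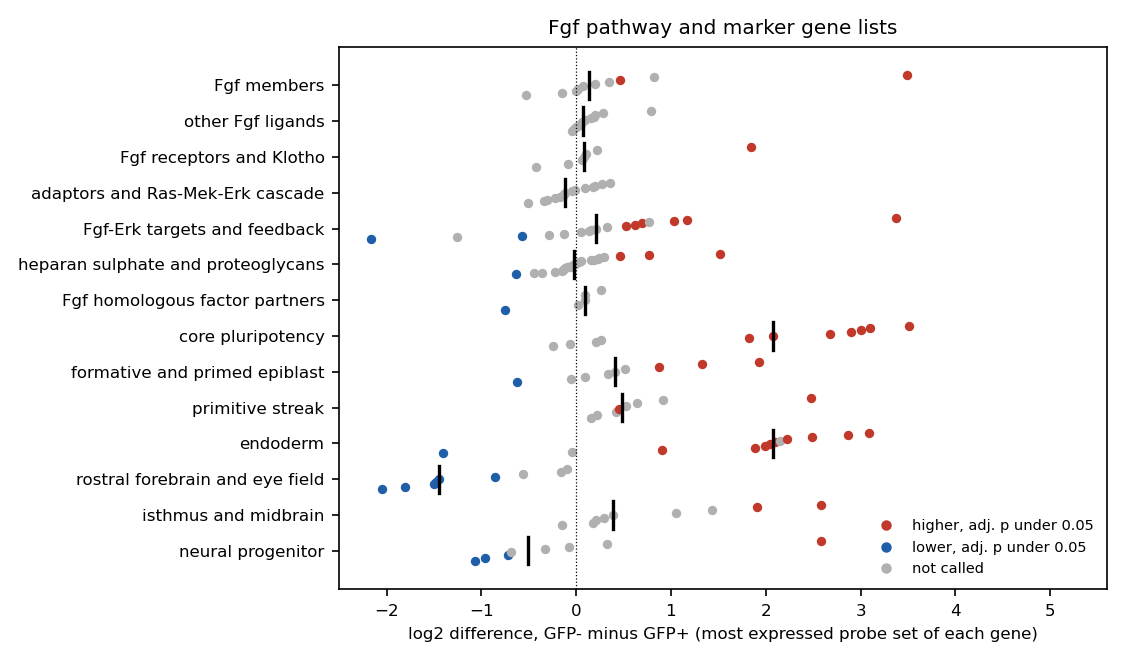
Log2 differences (GFP- minus GFP+) of the genes of each list, each by its most expressed probe set, with called genes in colour and the median as a vertical bar. The other Fgf ligands, receptors and cascade genes lie between -0.51 (Sos2) and 0.79 (Fgf14), apart from Klb at 1.85. Core pluripotency and endoderm genes have medians of 2.08 and 2.07.

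Markers of several cell types moved with the group in which Fgf5 and Fgf4 were higher. The mean log2 level of the 11 core pluripotency genes was 8.68 and 8.60 on the GFP+ arrays and 10.41 and 10.37 on the GFP- arrays, with 7 higher and none lower. Nanog was higher by 3.51 (adjusted p = 0.00761) and Tdgf1, a Nodal co-receptor, by 3.10 (adjusted p = 0.00638), while Sox2 differed by -0.24 (adjusted p = 0.148). Esrrb was not called at its most expressed set (0.26, adjusted p = 0.126) and was called higher at another (1.61, adjusted p = 0.0116). That made 8 genes higher by any probe set. The 12 endoderm genes had means of 6.22 and 6.60 against 8.08 and 8.12, with 9 higher and 1 lower. Sox17, an endoderm factor, was higher by 3.09 (adjusted p = 0.00551) and Cubn, an endocytic receptor of visceral endoderm, by 2.87 (adjusted p = 0.0115), and Cxcr4 differed by -0.05 (adjusted p = 0.941). The 9 primed epiblast genes had means of 9.90 and 9.82 against 10.40 and 10.38, with 3 higher and 1 lower, led by Foxd3 (1.93, adjusted p = 0.00963) and the kinase gene Pim2 (1.33, adjusted p = 0.0119). Otx2, in the same list, differed by -0.06 (adjusted p = 0.7). Of the 8 neural progenitor genes, 1 was higher and 3 were lower, with means of 8.75 and 8.56 against 8.65 and 8.43. Fabp7, a lipid-binding protein of radial glia, was higher by 2.58 (adjusted p = 0.00761), Hes5, a Notch target, was lower (-1.07, adjusted p = 0.00928), and Msi1 differed by -0.33 (adjusted p = 0.0889). Of the rostral genes, Lhx2 was lower (-1.80, adjusted p = 0.00551) and Hesx1 differed by -0.57 (adjusted p = 0.0936). The part of these cell types in the Fgf differences was not tested.

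Over the 4 arrays, the probe sets whose values, centred on their own mean, lay closest to those of an Fgf ligand were sought among the named probe sets of other genes. For Fgf5 they belonged to Etv5, Morc1 and Dppa2, at root mean square distances of 0.101, 0.114 and 0.133 log2 units. For the Fgf4 probe set 1420085_at they belonged to L1td1, Dppa5a and Dppa2, at 0.162, 0.166 and 0.169. For Fgf15 they belonged to Itgae, Oga and Tma16, at 0.00567, 0.00931 and 0.0130. The group differences of the nearest sets were 3.37, 3.37 and 3.75 beside 3.49 for Fgf5, and the likeness over 4 arrays in 2 groups is given as a description.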

How the data were processed

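RNA of day-4.5 Rax::GFP+ and Rax::GFP- cells, 2 samples each, had been hybridized to Affymetrix mouse arrays. The deposited table holds log2 values that the authors had summarized by RMA, a method that subtracts background and brings all arrays to 1 distribution. Unequal RNA content of the sorted cells is therefore not visible in them. The submitters' processing notes name R 2.13.0. The platform annotation gave a single symbol for 34958 probe sets, more than 1 for 932 and none here for 9211, and only the first kind was used for names.

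GFP- and GFP+ arrays were compared by a linear model for every one of the 45101 probe sets (limma 3.58.1, R 4.3.3), without filter or blocking term, with 2 residual and 2.52 prior degrees of freedom. Two-sided p-values received a Benjamini-Hochberg adjustment across the whole table. The same fit was run on within-array differences between the most expressed probe set of a gene and each of its other sets. The code was tested on simulated data. As alternatives, the fit was repeated with a replicate block, with q-values after Storey, with probe sets kept only at a log2 value of 5 or more on 2 arrays or more, and with median centring, quantile normalization, an intensity trend, array weights, omission of control probe sets, the mean of a gene's probe sets or the omission of each array. Where a group was left with 1 array, it was assumed to vary like the other group.

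The members and gene lists were chosen with earlier results of these data known. Named were all members, of each other list up to 2 called genes with the largest differences and 1 most expressed gene that did not pass, the genes next to Fgf3, Fgf4 and Fgf15, and the 3 most alike probe sets of Fgf5, Fgf4 and Fgf15. Other genes in the text, and calls at probe sets other than a list gene's most expressed one, were named after their values were seen.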

Additional observations from a re-analysis of the deposited data

How the results depend on the processing

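The 6 member probe sets called in the report, 5 higher and 1 lower in GFP- cells, were each called as well with array weights, median centring, quantile normalization, an intensity trend, omission of the control probe sets, the filter on dim probe sets and Storey's q-value. The called Fgf4 sets passed that filter only through the GFP- arrays, so their call under it adds no support. Some settings added members. The dim filter gave 9 member probe sets (2 lower), quantile normalization 7 (2 lower) and the trend 8 (2 lower). Storey's q-value gave 10, 8 higher and 2 lower, and 7 member genes in place of 4. The additional lower set was 1418497_at of Fgf13 each time. Over all probe sets, 3367 were called, 1642 higher and 1725 lower. Storey's q-value gave 6163 (2907 and 3256) and the trend 6962 (3230 and 3732). By the most expressed probe set, 2 member genes were called, and by the mean of a gene's probe sets 6, with Fgf3 and Fgf8 gained.

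With the replicate number as a block, limma called 0 probe sets (lowest adjusted p = 0.0567), 0 member probe sets in either direction, 0 member genes and 0 genes of the lists, where 11019 probe sets, 10 of them members, had an unadjusted p under 0.05. The called pairs of probe sets then fell to 50 from 774. The labels do not say that a number marks a shared sort, and the deviations of the same-numbered arrays correlated at -0.05, so the block was not taken as a pairing.

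Leaving out each array in turn, the member probe sets called ran from 0 to 5 (higher 0 to 4, lower 0 to 1), the member genes from 0 to 3, all probe sets from 0 to 2978 (higher 0 to 1059, lower 0 to 1919), the genes of the lists from 0 to 39 against 49, and the pairs from 74 to 1384. Each 0 came without a GFP- array, apart from the lower member count, which was also 0 without GFP+ replicate 1. Without GFP+ replicate 1, 820 probe sets and 2 member genes were called. Of the other genes named, Klb, Scn8a, Sdc4, Sulf1, Dusp5, Lmx1b, Irx3, Evx1, Pim2, Esrrb, Hs2st1, Spry4, Sos1 and Mapk8ip2 also lost their call there. So did Gpc6 and Ano1 at both called sets each, and Braf at 2 of its 3 called sets. Without GFP+ replicate 2, Sulf1, Dusp5, Evx1, Spry4, Mapk8ip2 and 1 set each of Gpc6, Ano1 and Braf did so, with adjusted p from 0.0501 to 0.114.

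Differences that changed sign were near 0 and never called. On omission of 1 array, these ran from -0.071 to 0.24 for 1418498_at of Fgf13, from -0.36 to 0.060 for 1420795_at of Fgf9, from -0.030 to 0.17 for 1421523_at of Fgf17, from -0.18 to 0.17 for Fgf18, from -0.039 to 0.048 for 1449729_at of Fgf4 and from -0.21 to 0.25 for Fgf2. Gaps between probe sets ran from -0.055 to 0.030 for 1441350_at of Fgf3, from -0.42 to 0.029 for 1449729_at of Fgf4 and from -0.12 to 0.13 for 1456239_at of Fgf17. Quantile normalization gave -0.038 for 1449729_at of Fgf4 and -0.027 for Fgf2, and median centring gave 0.037 for Fgf18. The cause of these changes was not tested. Median centring moved the median of all probe sets from 0.03 to 0.07.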
